A study of Mus musculus with 20 samples.

Results

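The genes described here belong to families of transcription factors that act in kidney development and in the response of tissue to stress. They were chosen by symbol alone: a gene was a member if its symbol began as those of the SOX, PAX, HOX, KLF, IRX, FOX, TEAD, ELF, ETV, GATA, TBX, RUNX, LHX, sine oculis homeobox, C/EBP, BACH, MAF and NF-κB (Nfkb, Rel) genes do, with Sox9 left out. There were 70 members among the 6025 genes of the deposited table, and no PAX gene was among them. The same letters caught 7 genes that are no such factor, and these are given last.

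RNA came from the kidney cortex of wild-type C57BL/6 mice aged 8 weeks, in 4 groups with no transgene. There were 8 control mice and 4 mice in each injury group. Ischemia-reperfusion injury (IRI) and rhabdomyolysis were sampled at 24 h and cisplatin at 72 h. IRI stops and then restores the blood flow of the kidney, rhabdomyolysis floods the blood with the contents of broken muscle, and cisplatin is a DNA-damaging drug that injures the tubule. Every control is labelled mock, while the design text speaks of mock and vehicle animals, so the kinds of control cannot be told apart. The time after injury differs between cisplatin and the other injuries, so agent and time cannot be told apart either. The ischemia time, the way rhabdomyolysis was induced and the cisplatin dose are not given in the sources used here.

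Values are CPM, read counts that the authors scaled to an effective library size, and 1 library is 1 biological replicate by the design text. The table held 3.48 M to 5.40 M reads (M, mega) per library. A single read was worth 0.0945 to 0.165 CPM, so this number of reads limits the precision of genes near 1 CPM. Controls 1 to 4 share a range of library identifiers with the IRI libraries, and controls 5 to 8 share another with the rhabdomyolysis and cisplatin libraries. Each injury was set against the 4 controls of its own range, called its matched controls below, so rhabdomyolysis and cisplatin share their controls. Between the control ranges limma called 0 of 5672 genes, with 454 at an unadjusted p under 0.05 (5 of the 68 members tested). The table is a selection: each of the 6025 genes reached a fold of 1.53 or more against the control mean in some injury, and each of the 70 members a fold of 1.60 or more. All 8 proximal tubule markers were detected in all groups, and their summed level in the controls was 14580 to 20590 CPM.

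Transcription factors bind DNA at short sequence motifs and raise or lower the transcription of nearby genes. Some families here pattern the embryo and the nephron (HOX, IRX, LHX, SOX), and in the adult kidney many of their genes are kept low or held to certain nephron segments. Others are switched on within minutes to hours of injury or inflammation (NF-κB, C/EBP, the small MAF proteins, several KLF proteins) or answer to cell shape and contact (TEAD with the coactivators YAP and TAZ). After acute kidney injury, tubule cells are known to lose part of their differentiated program and to express genes of the developing nephron.

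More members rose than fell in each injury. A difference below is on the log2(CPM + 1) scale, injury minus matched controls, and a member was called when its limma p, adjusted over all genes tested by the Benjamini-Hochberg method, was under 0.05. Where 3 differences are listed together, they stand in the order IRI, rhabdomyolysis, cisplatin. In IRI 35 of the 68 members tested rose and 15 fell, which is 73.5% called against 80.7 percent of all 5672 genes tested. In rhabdomyolysis 45 rose and 19 fell, 94.1% against 95.3 percent of all genes, and in cisplatin 45 rose and 19 fell, 94.1% against 91.8 percent. Under quantile normalization 27 rose and 17 fell in IRI, 43 rose and 20 fell in rhabdomyolysis, and 34 rose and 19 fell in cisplatin. The shares called as deposited lay near those of the whole table, which was itself chosen for change. By direction, 51.5%, 66.2% and 66.2% of members rose in IRI, rhabdomyolysis and cisplatin, against 40.6, 48.8 and 47.8 percent of all genes. Of all genes 40.1, 46.5 and 44 percent fell. These shares of all genes are the background of each family and list count given for the injuries. The median difference of the members was 0.43, 0.92 and 0.75 in that order, against 0.08, 0.31 and 0.30 over all genes. In bulk tissue, fewer cells of a type and less RNA per cell cannot be told apart. Lhx5 and Relt had a mean under 1 CPM and were not tested.

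**Figure D1:**
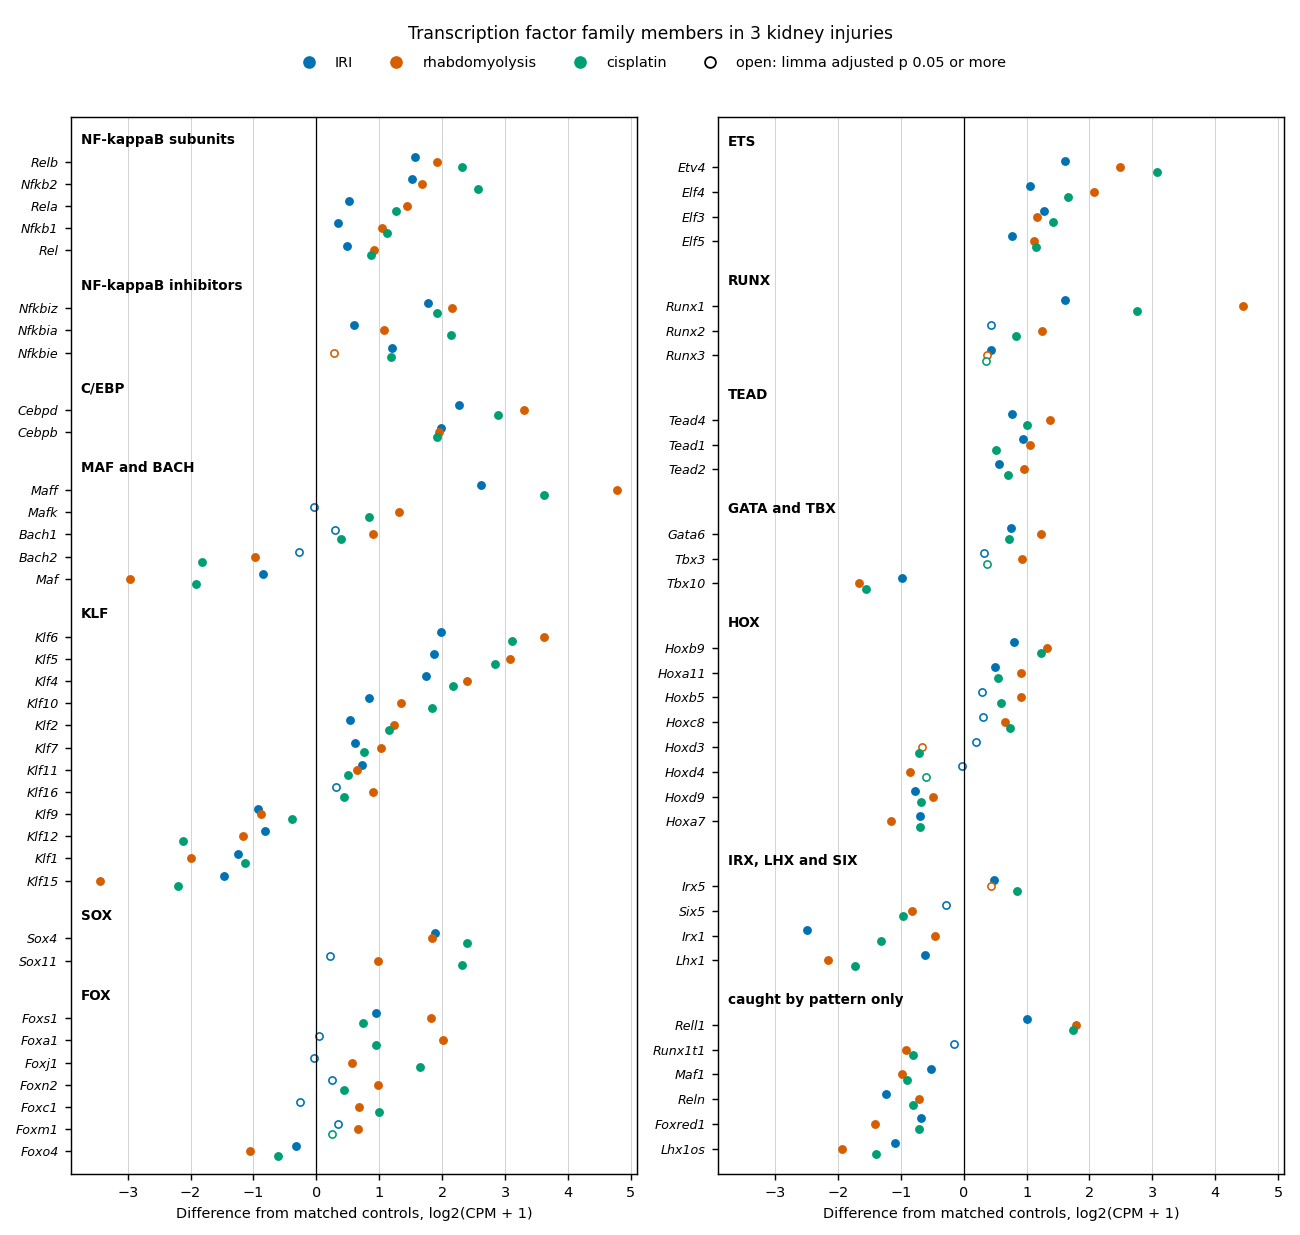
Difference from matched controls on the log2(CPM + 1) scale (x axis) for members tested, grouped by family, in IRI (blue), rhabdomyolysis (orange) and cisplatin (green); open circles had a limma adjusted p of 0.05 or more. The NF-κB, C/EBP, ETS and TEAD genes lie to the right of 0 in all 3 injuries, Maff and Runx1 reach 4.78 and 4.44 in rhabdomyolysis, and Klf15 reaches −3.45.

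The NF-κB genes were called higher in all injuries, except Nfkbie in rhabdomyolysis, and the subunit gene Nfkb2 and the inhibitor gene Nfkbia were highest after cisplatin. NF-κB dimers wait in the cytoplasm bound to inhibitors (IκB proteins), and cytokine or stress signals destroy the inhibitor and free the dimer to enter the nucleus, where the inhibitor genes are among its targets. All 5 subunit genes (Nfkb1, Nfkb2, Rel, Rela, Relb) were called higher in each injury. Nfkb2, whose product is processed into the DNA-binding partner of RELB in the noncanonical pathway, lay from 11.2 to 15.8 CPM (median 12.7 CPM) in the controls. It measured 33.3, 52.1, 40.3 and 33.2 CPM in IRI, 51.6, 43.9, 46.6 and 37.8 CPM in rhabdomyolysis and 64.9, 91.7, 96.6 and 85.3 CPM in cisplatin. All 12 injured libraries lay above all controls, and every cisplatin library lay above every rhabdomyolysis library. The differences were 1.52 (SE 0.15, limma adjusted p 1.81e-08) in IRI, 1.68 (SE 0.15, limma adjusted p 1.08e-09) in rhabdomyolysis and 2.57 (SE 0.15, limma adjusted p 1.88e-12) in cisplatin, or 3.04-fold, 3.36-fold and 6.32-fold. Relb rose by 1.57, 1.92 and 2.31 in IRI, rhabdomyolysis and cisplatin, from a control median of 4.27 CPM.

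Rela, which encodes the main activating subunit, measured 49.2, 47.3, 49.5 and 47.6 CPM in IRI, 93.4, 88.6, 97.4 and 102 CPM in rhabdomyolysis and 77.7, 85.9, 95.4 and 77.7 CPM in cisplatin, against controls from 27.2 to 39.4 CPM (median 34.4 CPM). Its groups did not overlap with the controls, and the differences were 0.53, 1.44 and 1.26 (SE 0.12 each). Nfkb1, the precursor of the other DNA-binding subunit, rose by 0.34, 1.04 and 1.13. The IRI call of Nfkb1 was lost without control 2, control 3, IRI 2 or IRI 3 (range over the 8 single libraries left out: 0.27 to 0.40, limma adjusted p up to 0.101). Rel, with 1 to 8 reads per control library, rose by 0.49, 0.92 and 0.87, and its IRI call was lost without control 1, control 2, IRI 1 or IRI 2 (0.36 to 0.59, limma adjusted p up to 0.131). Under quantile normalization, which forces 1 distribution on all libraries, 3 of the 5 subunit genes were called in IRI and 4 of 5 in cisplatin, with Nfkb1 and Rel lost in IRI and Rel in cisplatin. The IRI call of Rel was also lost with DESeq2 (DESeq2 adjusted p 0.0645).

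Among the inhibitors, Nfkbia, which encodes IκBα, lay from 17.8 to 25.4 CPM (median 20.3 CPM) in the controls. It measured 26.6, 42.9, 32.4 and 36.0 CPM in IRI, 44.4, 38.0, 38.5 and 53.9 CPM in rhabdomyolysis and 71.3, 104, 110.5 and 88.1 CPM in cisplatin. The cisplatin libraries lay above all others, and the differences were 0.59 (SE 0.16, limma adjusted p 0.00194) in IRI, 1.07 (SE 0.16, limma adjusted p 1.53e-06) in rhabdomyolysis and 2.14 (SE 0.16, limma adjusted p 5.31e-11) in cisplatin. Nfkbie, which encodes IκBε, rose in IRI by 1.2 and in cisplatin by 1.19 (limma adjusted p 6.29e-07 and 3.98e-07). In rhabdomyolysis its values were 6.90, 6.60, 6.65 and 5.22 CPM against controls from 3.36 to 5.45 CPM (median 4.30 CPM), a difference of 0.28 (SE 0.16, limma adjusted p 0.0926) that did not pass the threshold. Under 75th percentile scaling all 3 inhibitor genes were called higher in rhabdomyolysis. Nfkbiz, a nuclear inhibitor-like protein that steers target choice, rose by 1.78, 2.15 and 1.92, with injured libraries between 6.95 and 14.9 CPM and controls up to 3.79 CPM.

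**Figure D2:**
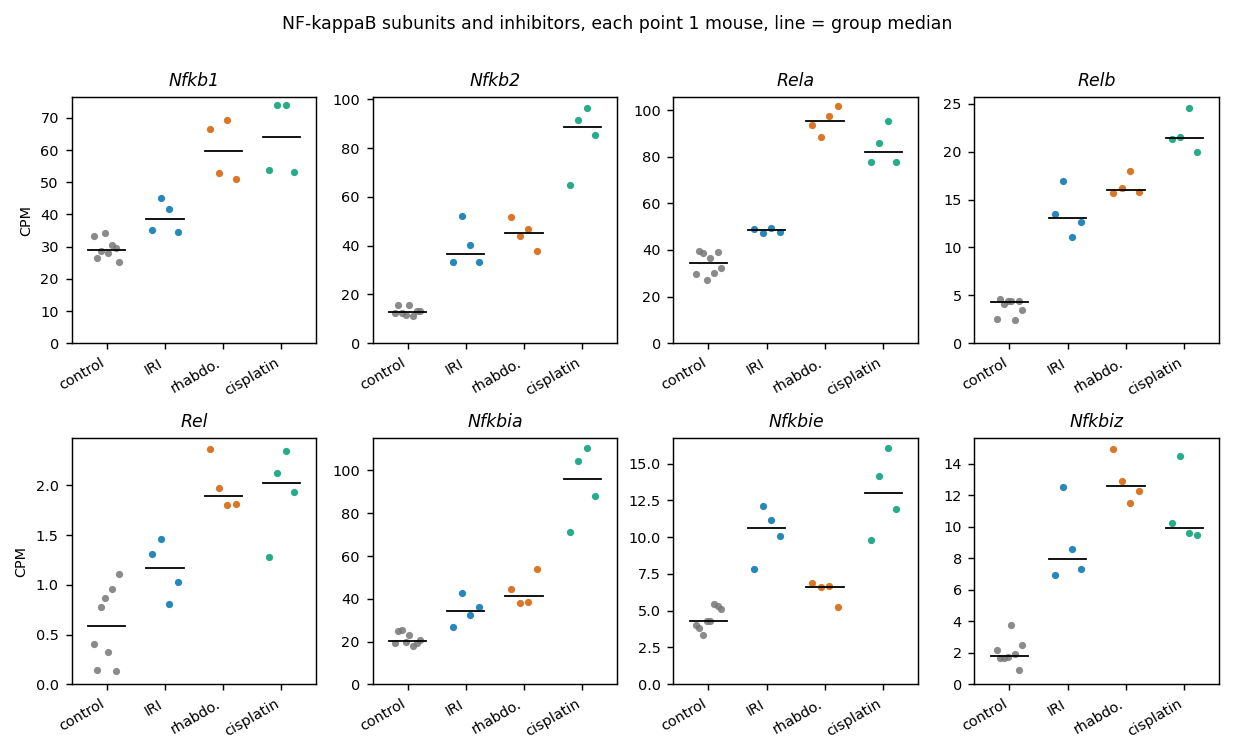
CPM (y axis, from 0) of the 5 NF-κB subunit genes and 3 inhibitor genes in each library (points, 1 mouse each) by group (x axis), with the group median as a line. Nfkb2 and Nfkbia show the cisplatin libraries above every other library, and Nfkbie shows the rhabdomyolysis libraries overlapping the controls and below both other injuries.

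Of the other genes of the pathway, on a list of 28 written from general knowledge, 19 were in the table and all were tested. In IRI 15 of the 19 were called higher, in rhabdomyolysis 17 and in cisplatin 19, and none was called lower, against 40.6, 48.8 and 47.8 percent of all genes higher and 80.7, 95.3 and 91.8 percent called in either direction. The list had median differences of 1.06, 1.22 and 1.56. The neutrophil chemokine genes Cxcl1 and Cxcl2 rose by 2.11, 2.66 and 3.79 and by 0.68, 2.08 and 2.92. The endothelial adhesion gene Icam1 rose by 1.66, 1.10 and 2.76. The genes not called were Ikbke, Traf1, Tnip2 and Il1b in IRI and Ikbke and Traf1 in rhabdomyolysis. Ikbke, an IκB kinase-related gene singled out after its values were seen, differed by 0.04 in IRI, −0.02 in rhabdomyolysis and 1.15 (SE 0.15, limma adjusted p 4.74e-07) in cisplatin. Its difference between rhabdomyolysis and cisplatin was −1.17 (SE 0.15, limma adjusted p 1.35e-06). Of the 19 genes, 1 was called higher and 8 lower in rhabdomyolysis than in cisplatin. The summed level of 5 neutrophil markers was 2.81 to 5.11 CPM in the controls, 13.6 to 28.2 CPM in IRI, 25.3 to 49.1 CPM in rhabdomyolysis and 21.9 to 39.8 CPM in cisplatin. The sum of 7 macrophage and monocyte markers was 81.5 to 113.5 CPM in the controls, 96.1 to 133.5 CPM in IRI, 101.5 to 240.8 CPM in rhabdomyolysis and 183.7 to 262.6 CPM in cisplatin. These 7 markers were split, with 4 called higher and 1 lower in IRI, 6 and 1 in rhabdomyolysis, and 5 and 1 in cisplatin. No marker of either list was at 0 in all libraries of a group, and their part in the NF-κB result was not tested.

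To show the DNA next to these levels, the 250 bases before each start site were searched on both strands for the κB motif (GGG, then 2 bases of any kind, then TTTCC). RefSeq promoters on GRCm38.p6 were matched for 43 of the 70 members. The motif was found in 4 of the 43 members (9.3%: Nfkb2, Nfkbia, Rel and Elf3), against 1.65% of 27025 genes with a promoter and 2.21% of 4477 genes of the deposited table. A match describes letters and shows no binding. The windows are printed 5′ to 3′ on the strand of the gene with the κB match in capitals, because these genes carry the NF-κB motif and rose in each injury. Nfkbia is shown from chr12:55492648-55492897 (minus strand), Nfkb2 from chr19:46304487-46304736 and chr19:46305680-46305929 (plus strand, 2 start sites), Rel from chr11:23770970-23771219 (minus strand) and Elf3 from chr1:135258473-135258722 (minus strand).
Nfkbia: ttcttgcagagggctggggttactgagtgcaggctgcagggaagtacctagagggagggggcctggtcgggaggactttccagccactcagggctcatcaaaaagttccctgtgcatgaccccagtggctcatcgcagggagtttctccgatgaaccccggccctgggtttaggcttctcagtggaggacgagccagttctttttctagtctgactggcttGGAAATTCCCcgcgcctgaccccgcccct
Nfkb2, first start site: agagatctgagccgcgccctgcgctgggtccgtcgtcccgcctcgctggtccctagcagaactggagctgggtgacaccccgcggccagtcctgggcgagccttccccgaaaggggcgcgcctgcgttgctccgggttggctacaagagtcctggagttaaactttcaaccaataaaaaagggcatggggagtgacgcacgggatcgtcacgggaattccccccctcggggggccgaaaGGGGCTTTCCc
Nfkb2, other start site: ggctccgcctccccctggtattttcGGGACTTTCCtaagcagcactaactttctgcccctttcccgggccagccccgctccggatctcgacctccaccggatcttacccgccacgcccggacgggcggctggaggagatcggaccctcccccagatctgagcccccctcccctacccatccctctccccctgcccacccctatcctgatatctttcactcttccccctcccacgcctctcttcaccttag
Rel: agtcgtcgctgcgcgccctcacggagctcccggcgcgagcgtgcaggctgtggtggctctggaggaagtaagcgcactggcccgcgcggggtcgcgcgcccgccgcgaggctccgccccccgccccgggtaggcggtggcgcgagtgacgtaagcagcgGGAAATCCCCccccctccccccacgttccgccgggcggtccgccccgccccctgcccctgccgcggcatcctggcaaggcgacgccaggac
Elf3: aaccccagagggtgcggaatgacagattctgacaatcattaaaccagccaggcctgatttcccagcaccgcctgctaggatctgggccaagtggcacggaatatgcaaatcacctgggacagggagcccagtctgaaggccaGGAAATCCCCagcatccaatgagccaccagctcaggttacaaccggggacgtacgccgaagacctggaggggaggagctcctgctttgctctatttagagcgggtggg
In Nfkbia the match lies 29 to 20 bases before the start site on the opposite strand, and in Nfkb2 it lies 11 to 2 bases before one start and 225 to 216 bases before another. In Rel it lies 91 to 82 bases and in Elf3 108 to 99 bases before the start, both on the opposite strand. The AP-1 motif TGANTCA was in 5 of the 43 members (11.6%: Elf4, Klf9, Nfkb2, Nfkbie and Six5) against 7.82% of all genes. The CArG box of serum response factor was in 0 of the 43, against 1.62% of all genes. Of the AP-1 holders, Elf4 and Nfkb2 rose in all injuries, Nfkbie rose in IRI and cisplatin, and Klf9 fell in all injuries. Six5 fell in rhabdomyolysis and cisplatin.

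Both C/EBP genes rose in every injury. C/EBPβ and C/EBPδ are leucine zipper factors of the acute-phase and inflammatory response. Cebpd lay from 2.01 to 4.42 CPM (median 3.44 CPM) in the controls. It measured 14.7, 20.4, 14.2 and 25.7 CPM in IRI, 58.9, 42.5, 35.0 and 52.1 CPM in rhabdomyolysis and 31.9, 46.7, 40.7 and 23.5 CPM in cisplatin. All 12 injured libraries were above all controls, by 2.27 (SE 0.22, limma adjusted p 8.24e-09) in IRI, 3.30 (SE 0.22, limma adjusted p 5.68e-12) in rhabdomyolysis and 2.89 (SE 0.22, limma adjusted p 8.6e-11) in cisplatin. Cebpb lay from 8.34 to 25.2 CPM (median 13.9 CPM) in the controls. It measured 50.4, 44.8, 45.2 and 47.0 CPM in IRI, 75.6, 62.1, 74.7 and 75.6 CPM in rhabdomyolysis and 49.6, 81.2, 94.2 and 62.6 CPM in cisplatin. All injured libraries were above all controls, and the differences were 1.98, 1.96 and 1.92 (SE 0.19 each). The controls matched to IRI had a mean of 11.4 CPM and controls 5 to 8 a mean of 18.2 CPM (limma adjusted p 0.442, unadjusted p 0.00359). On a list of 15 leucine zipper partners and regulators, 12 were tested and all 12 rose in each injury, against 40.6, 48.8 and 47.8 percent of all genes. The AP-1 gene Fosl1 rose by 3.10, 6.95 and 6.00 and the stress gene Atf3 by 2.96, 5.70 and 4.29. The neutrophil marker sum given above was also above all controls in every injured library, and for the macrophage and monocyte sum this held in cisplatin but not in IRI or rhabdomyolysis. Their part was not tested.

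In the MAF and BACH family the small MAF gene Maff had the largest rise of the 68 members tested in each injury on the log2(CPM + 1) scale, while the large MAF gene Maf fell. That scale understates the change of low members such as Klf5, Sox11 and Etv4, and the order need not hold by fold. Small MAF proteins lack an activation domain and pair with NRF2 or with the heme-sensing repressors BACH1 and BACH2 at antioxidant response elements. Maff lay from 0.942 to 3.87 CPM (median 2.42 CPM) in the controls. It measured 15.2, 20.9, 14.9 and 15.4 CPM in IRI, 106, 110.5, 103 and 108 CPM in rhabdomyolysis and 39.2, 50.6, 57.2 and 42.9 CPM in cisplatin. The 4 groups did not overlap at any point, with rhabdomyolysis highest, then cisplatin, then IRI. The differences were 2.61 (SE 0.18, limma adjusted p 4.2e-11) in IRI, 4.78 (SE 0.18, limma adjusted p 5.81e-16) in rhabdomyolysis and 3.61 (SE 0.18, limma adjusted p 7.2e-14) in cisplatin, or 8.61-fold, 35.9-fold and 15.9-fold. Maff was 1 of the 43 members, and the only one, with the cyclic AMP response element TGACGTCA before a start site (2.33% of members against 1.77% of all genes and 2.35% of the genes of the deposited table), 29 to 22 bases before the start in chr15:79347270-79347519 (plus strand, GRCm38.p6, RefSeq). Its window is shown with the element in capitals.
Maff: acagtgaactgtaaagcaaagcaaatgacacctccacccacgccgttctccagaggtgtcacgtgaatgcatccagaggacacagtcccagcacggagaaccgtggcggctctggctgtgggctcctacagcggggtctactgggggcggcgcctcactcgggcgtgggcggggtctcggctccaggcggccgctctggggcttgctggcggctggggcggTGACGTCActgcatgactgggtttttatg
Mafk, another small MAF gene, measured 38.7, 31.0, 30.8 and 40.4 CPM in IRI and overlapped with the controls, which ran from 31.4 to 41.2 CPM (median 37.8 CPM). In rhabdomyolysis it measured 90.5, 97.8, 91.4 and 115 CPM and in cisplatin 60.1, 71.0, 75.5 and 73.9 CPM, above all controls. Its differences were −0.03 (SE 0.11, limma adjusted p 0.799) in IRI, 1.32 (SE 0.11, limma adjusted p 3.81e-10) in rhabdomyolysis and 0.83 (SE 0.11, limma adjusted p 7.19e-07) in cisplatin.

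Bach1 rose in rhabdomyolysis by 0.90 and in cisplatin by 0.39, and its IRI difference of 0.29 (SE 0.13, limma adjusted p 0.0508) did not pass. Bach2, a repressor best known from B cells, lay from 5.16 to 9.81 CPM (median 8.35 CPM) in the controls. It measured 4.72, 8.26, 5.28 and 4.46 CPM in IRI, 4.25, 3.45, 2.56 and 5.79 CPM in rhabdomyolysis and 1.63, 1.51, 2.46 and 1.36 CPM in cisplatin. The cisplatin libraries lay below all others, and Bach2 fell in rhabdomyolysis and cisplatin, with differences of −0.97 (SE 0.22, limma adjusted p 0.000225) and −1.82 (SE 0.22, limma adjusted p 9.35e-08). Its IRI difference was −0.27 (SE 0.22, limma adjusted p 0.245). Of 7 lymphocyte markers only Cd79a was in the table, at 0.431 to 1.60 CPM in the controls and at most 0.918 CPM in any injured library. Maf measured 137, 126, 131 and 175 CPM in IRI, 25.6, 38.9, 34.1 and 32.5 CPM in rhabdomyolysis and 104, 55.4, 53.5 and 70.9 CPM in cisplatin, against controls from 212 to 305 CPM (median 263 CPM). No injured library reached the controls, and the differences were −0.85 (SE 0.18, limma adjusted p 0.000179) in IRI, −2.97 (SE 0.18, limma adjusted p 8.55e-13) in rhabdomyolysis and −1.91 (SE 0.18, limma adjusted p 1.77e-09) in cisplatin, or 1.81-fold, 7.98-fold and 3.69-fold lower. On a list of 13 partners and targets, 7 were tested and all 7 rose in each injury, against 40.6, 48.8 and 47.8 percent of all genes. Hmox1, the heme-degrading enzyme that BACH1 represses, averaged 38.1 CPM ± 10.1 (SD, n = 8) in controls, and after IRI, rhabdomyolysis and cisplatin 566 CPM ± 147, 1223 CPM ± 287 and 192 CPM ± 15.6 (SD, n = 4 each). Slc7a11, the cystine transporter of glutathione synthesis, rose by 6.99 in rhabdomyolysis, 3.27 in IRI and 1.86 in cisplatin.

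The KLF family split into 8 genes that were higher and 4 that were lower. KLF proteins bind GC-rich DNA through zinc fingers, and different members serve as early response genes, flow sensors, metabolic regulators or lineage factors. In rhabdomyolysis and cisplatin all 12 were called, 8 higher and 4 lower, and in IRI 7 were higher, 4 lower and Klf16 was not called. Of all genes 80.7, 95.3 and 91.8 percent were called in IRI, rhabdomyolysis and cisplatin, so the number of KLF genes called lay near the background. Klf6, an early response gene, lay from 30.3 to 48.6 CPM (median 32.5 CPM) in the controls. It measured 137, 146, 142 and 172 CPM in IRI, 408, 419, 363 and 487 CPM in rhabdomyolysis and 263, 331, 333 and 263 CPM in cisplatin. None of the 4 groups overlapped, and the differences were 1.99 (SE 0.14, limma adjusted p 4.2e-11) in IRI, 3.61 (SE 0.14, limma adjusted p 6.17e-16) in rhabdomyolysis and 3.12 (SE 0.14, limma adjusted p 8.25e-15) in cisplatin. Klf5, which in the healthy kidney marks the collecting duct, was near the limit of the libraries in controls at 2 to 8 reads each. It measured 6.42, 3.73, 4.02 and 4.12 CPM in IRI, 13.4, 15.8, 18.0 and 14.3 CPM in rhabdomyolysis and 10.2, 13.4, 13.6 and 14.0 CPM in cisplatin, above all controls. Its differences were 1.87 (SE 0.17, limma adjusted p 4.84e-09) in IRI, 3.08 (SE 0.17, limma adjusted p 4.27e-13) in rhabdomyolysis and 2.84 (SE 0.17, limma adjusted p 2.59e-12) in cisplatin. The summed level of the 2 principal cell markers of the collecting duct in the table was 305 to 379 CPM in the controls, 197 to 224 CPM in IRI, 113.5 to 178 CPM in rhabdomyolysis and 158 to 212 CPM in cisplatin, and its part in the Klf5 values was not tested.

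Klf4, a regulator of epithelial and endothelial identity, rose by 1.75, 2.39 and 2.18 in IRI, rhabdomyolysis and cisplatin, with all injured libraries at 29.4 CPM or more and controls up to 10.4 CPM. Klf10, a TGF-β-inducible gene, rose by 0.83, 1.35 and 1.83. Klf2, the flow-responsive factor of endothelium, rose by 0.54, 1.24 and 1.16, and Klf7 by 0.61, 1.02 and 0.76. The IRI call of Klf2 was lost without control 2, control 4, IRI 1 or IRI 4 (0.36 to 0.65, limma adjusted p up to 0.149). The summed level of 4 endothelial markers was 174 to 360.2 CPM in the controls, 341 to 381 CPM in IRI, 601 to 857 CPM in rhabdomyolysis and 381 to 537 CPM in cisplatin, and its part in the Klf2 and Klf4 values was not tested. Klf11 rose by 0.73, 0.64 and 0.50, and in cisplatin this call was lost without control 5, control 8 or any 1 cisplatin library (0.34 to 0.61, limma adjusted p up to 0.157). Klf16 rose in rhabdomyolysis by 0.89 and in cisplatin by 0.44, and its IRI difference was 0.31 (SE 0.16, limma adjusted p 0.0813). Under quantile normalization the IRI count was 5 higher and 4 lower, and the cisplatin count 6 higher and 3 lower, with Klf2 and Klf7 lost in IRI and Klf9, Klf11 and Klf16 in cisplatin. The cisplatin call of Klf11 was also lost with DESeq2 (DESeq2 adjusted p 0.104) and with edgeR on the deposited effective sizes (edgeR adjusted p 0.0546).

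The KLF genes that fell were Klf15, Klf12, Klf9 and Klf1. Klf15 is a regulator of amino acid and glucose metabolism that is high in healthy kidney. It lay from 83.4 to 127 CPM (median 103 CPM) in the controls. It measured 40.4, 26.4, 29.9 and 49.0 CPM in IRI, 5.29, 7.39, 7.98 and 14.4 CPM in rhabdomyolysis and 28.4, 14.9, 13.4 and 33.0 CPM in cisplatin. Every injured library lay below every control, with differences of −1.47 (SE 0.27, limma adjusted p 4.08e-05) in IRI, −3.45 (SE 0.27, limma adjusted p 5.62e-11) in rhabdomyolysis and −2.20 (SE 0.27, limma adjusted p 1.18e-07) in cisplatin, or 2.78-fold, 11.4-fold and 4.47-fold lower. Klf12 measured 11.4, 15.3, 15.2 and 14.2 CPM in IRI, 11.5, 12.5, 8.93 and 11.9 CPM in rhabdomyolysis and 6.19, 4.44, 5.14 and 5.33 CPM in cisplatin, against controls from 21.2 to 35.1 CPM (median 23.8 CPM). Cisplatin was lowest with no overlap with any other group, and the differences were −0.82, −1.16 and −2.12 (SE 0.16 each; limma adjusted p 0.000101, 5.38e-07 and 7.45e-11). The summed level of the 8 proximal tubule markers was lower in the same libraries, at 14580 to 20590 CPM in the controls, 6011 to 8763 CPM in IRI, 3105 to 4728 CPM in rhabdomyolysis and 3818 to 6497 CPM in cisplatin, and its part in the falls was not tested.

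Klf9, a target of glucocorticoid and thyroid hormone receptors, lay from 187 to 245 CPM (median 229 CPM) in the controls. It measured 103, 103, 101 and 170.1 CPM in IRI, 116, 120.3, 101 and 168 CPM in rhabdomyolysis and 182, 155, 174 and 191 CPM in cisplatin. In IRI and rhabdomyolysis it was below all controls, with differences of −0.93 (SE 0.16, limma adjusted p 1.58e-05) and −0.88 (SE 0.16, limma adjusted p 1.53e-05). In cisplatin 1 library overlapped with the controls and the difference was −0.39 (SE 0.16, limma adjusted p 0.0232). The cisplatin call was lost without control 7 or cisplatin 2 (−0.43 to −0.33, limma adjusted p up to 0.0694), under 75th percentile scaling (−0.29, limma adjusted p 0.0799) and under quantile normalization (−0.08, limma adjusted p 0.606). Klf1 is the master factor of red cell precursors. It lay from 2.69 to 6.62 CPM (median 3.79 CPM) in the controls, at 20 to 47 reads per library, and measured 1.71, 0.666, 1.26 and 1.37 CPM in IRI, 0.284, 0.197, 0.095 and 0.114 CPM in rhabdomyolysis and 1.05, 1.21, 0.894 and 1.36 CPM in cisplatin. No injured library reached the controls, and the rhabdomyolysis libraries lay below the cisplatin libraries at 1 to 3 reads each. Its differences were −1.25 (SE 0.19, limma adjusted p 4.12e-06) in IRI, −1.99 (SE 0.19, limma adjusted p 1.53e-09) in rhabdomyolysis and −1.13 (SE 0.19, limma adjusted p 9.32e-06) in cisplatin.

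**Figure D3:**
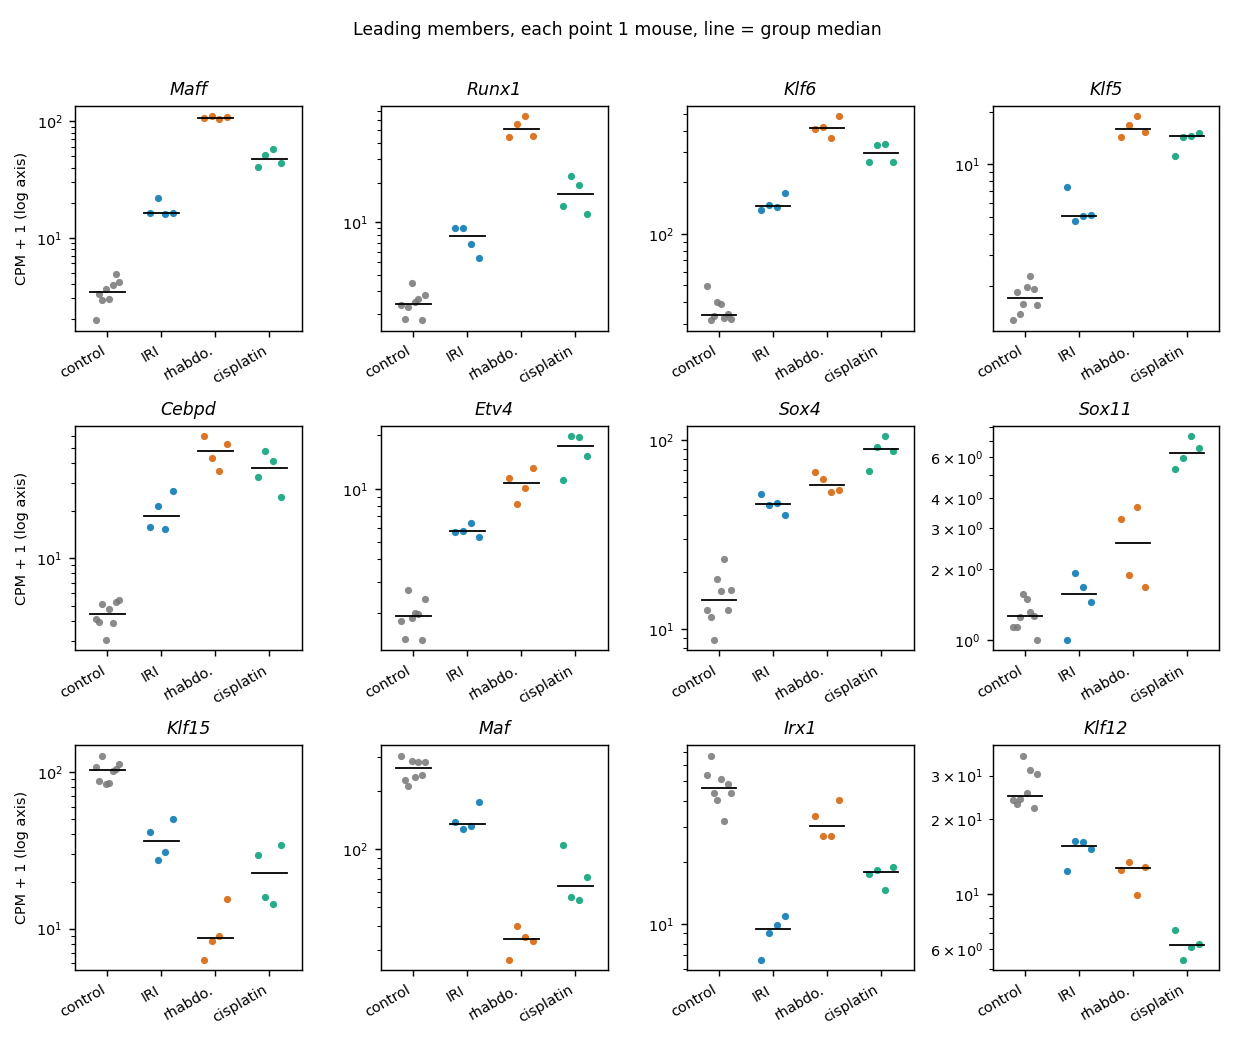
CPM + 1 on a log axis (y axis) of 12 leading members in each library (points, 1 mouse each) by group (x axis), with the group median as a line; each panel has its own scale. Maff, Runx1, Klf6, Klf5, Cebpd, Etv4 and Sox4 lie above all controls in all 12 injured libraries, Sox11 only in some, and Klf15, Maf and Klf12 lie below all controls, with Irx1 lowest in IRI and overlapping the controls in rhabdomyolysis.

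The SOX genes in the table besides the one left out were Sox4 and Sox11, SoxC factors of progenitor cells in the embryo, including the developing nephron. Sox4 lay from 7.74 to 22.6 CPM (median 13.3 CPM) in the controls. It measured 51.1, 44.5, 45.8 and 39.2 CPM in IRI, 66.9, 61.1, 52.5 and 53.2 CPM in rhabdomyolysis and 68.0, 90.7, 105 and 86.7 CPM in cisplatin. All injured libraries were above all controls, by 1.89 (SE 0.19, limma adjusted p 1.87e-08) in IRI, 1.83 (SE 0.19, limma adjusted p 9.24e-09) in rhabdomyolysis and 2.40 (SE 0.19, limma adjusted p 2.19e-10) in cisplatin. Mean Sox4 was 11.85 CPM in the controls matched to IRI and 16.07 CPM in controls 5 to 8 (limma adjusted p 0.584, unadjusted p 0.0393). Every IRI library lay below every rhabdomyolysis library, although the IRI difference was the larger of these. Sox11 was close to absent in the controls at 0 to 4 reads per library. It measured 0, 0.932, 0.689 and 0.458 CPM in IRI, 2.27, 0.887, 2.66 and 0.681 CPM in rhabdomyolysis and 4.32, 4.95, 6.37 and 5.52 CPM in cisplatin, where each library held 37 to 57 reads. Only the rhabdomyolysis and cisplatin libraries lay wholly above the controls, and the differences were 0.22 (SE 0.24, limma adjusted p 0.391) in IRI, 0.98 (SE 0.24, limma adjusted p 0.000617) in rhabdomyolysis and 2.31 (SE 0.24, limma adjusted p 1.34e-08) in cisplatin.

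All 4 ETS members rose in every injury. Etv4 is a target of growth factor receptor signalling that drives ureteric bud branching in the embryo, and Elf3, Elf4 and Elf5 are ELF factors, of which Elf3 and Elf5 are epithelial. Etv4 lay from 0.401 to 1.68 CPM (median 0.913 CPM) in the controls at 3 to 13 reads each, and measured 4.72, 4.79, 5.40 and 4.35 CPM in IRI, 10.5, 7.19, 9.12 and 12.2 CPM in rhabdomyolysis and 10.2, 18.9, 18.4 and 14.3 CPM in cisplatin. All injured libraries were above all controls, by 1.62 (SE 0.21, limma adjusted p 7.79e-07) in IRI, 2.48 (SE 0.21, limma adjusted p 3.7e-10) in rhabdomyolysis and 3.08 (SE 0.21, limma adjusted p 1.93e-11) in cisplatin. Elf3, whose promoter window is printed above, measured 31.3, 38.0, 34.2 and 31.2 CPM in IRI, 36.8, 33.0, 38.8 and 34.5 CPM in rhabdomyolysis and 35.1, 46.1, 52.4 and 39.2 CPM in cisplatin against controls from 10.8 to 17.9 CPM (median 14.6 CPM), and rose by 1.27, 1.17 and 1.42. Elf4 rose by 1.06, 2.08 and 1.66, and Elf5, at 2 to 6 reads per control library, by 0.77, 1.12 and 1.14.

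Runx1 had the second largest rise of the members in rhabdomyolysis on the log2(CPM + 1) scale, after Maff. RUNX1 is a factor of blood formation that is also expressed in injured epithelium. It lay from 0.801 to 2.44 CPM (median 1.41 CPM) in the controls, at 6 to 17 reads per library, and measured 8.00, 7.99, 5.86 and 4.35 CPM in IRI, 43.2, 55.2, 63.2 and 44.4 CPM in rhabdomyolysis and 12.4, 21.4, 18.3 and 10.6 CPM in cisplatin. The 4 groups did not overlap, and the differences were 1.61 (SE 0.23, limma adjusted p 2.16e-06) in IRI, 4.44 (SE 0.23, limma adjusted p 1.02e-13) in rhabdomyolysis and 2.75 (SE 0.23, limma adjusted p 3.84e-10) in cisplatin. In fold these were 4.42, 36.2 and 11.0. Runx2, the factor of bone formation, rose in rhabdomyolysis by 1.24 and in cisplatin by 0.83, and its IRI difference was 0.43 (SE 0.23, limma adjusted p 0.097). Runx3, which acts in lymphoid cells, was called in IRI at 0.44, and this was lost without 7 of the 8 libraries, all but control 3 (0.33 to 0.58, limma adjusted p up to 0.134), while its rhabdomyolysis and cisplatin differences were 0.37 and 0.35 (limma adjusted p 0.0649 and 0.0858). The neutrophil sum given above was higher in all injured libraries than in the controls, while the macrophage and monocyte sum overlapped the controls in IRI and rhabdomyolysis. Their part in the Runx1 values was not tested. The Runx3 call in IRI was also lost with DESeq2 (DESeq2 adjusted p 0.131), with edgeR on the deposited effective sizes (edgeR adjusted p 0.0668) and under quantile normalization (limma adjusted p 0.36), and the Runx2 call in cisplatin under quantile normalization (limma adjusted p 0.136).

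The 3 TEAD genes rose in each injury, as did most of the listed Hippo and TEAD genes in the table, which was itself chosen for change. TEAD proteins carry the DNA-binding part of complexes whose coactivators YAP and TAZ are held out of the nucleus by the Hippo kinases. Tead1 measured 206, 154, 166 and 197 CPM in IRI, 199.8, 269, 208 and 265 CPM in rhabdomyolysis and 160.5, 161, 161 and 158 CPM in cisplatin against controls from 79.4 to 125 CPM (median 105 CPM). All injured libraries were above all controls, by 0.95 (SE 0.14, limma adjusted p 3.4e-06) in IRI, 1.05 (SE 0.14, limma adjusted p 3.25e-07) in rhabdomyolysis and 0.51 (SE 0.14, limma adjusted p 0.0019) in cisplatin. Tead4 lay from 0.422 to 2.76 CPM (median 1.65 CPM) in the controls. It measured 3.02, 2.66, 1.84 and 2.63 CPM in IRI, 7.47, 6.50, 6.94 and 5.45 CPM in rhabdomyolysis and 4.20, 5.05, 4.58 and 5.52 CPM in cisplatin. IRI overlapped with the controls for Tead4, the other injuries did not, and the differences were 0.77 (SE 0.21, limma adjusted p 0.00184), 1.38 (SE 0.21, limma adjusted p 1.65e-06) and 1.00 (SE 0.21, limma adjusted p 0.000115). Tead2 rose by 0.56, 0.95 and 0.70, and its IRI call was lost without control 2, control 3 or IRI 1 (0.39 to 0.72, limma adjusted p up to 0.117). Under quantile normalization Tead2 was not called in IRI or cisplatin (limma adjusted p 0.179 and 0.117).

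A list of Hippo pathway genes and TEAD targets held 22 symbols, with Cyr61 and Ctgf each entered under an old and a new symbol. Of these 13 were tested, and 12 were called higher in IRI and 13 in rhabdomyolysis and in cisplatin, and none lower. Of all genes 40.6, 48.8 and 47.8 percent were called higher and 80.7, 95.3 and 91.8 percent called in either direction. The list held Hippo kinases as well as TEAD targets, so these counts give no direction of pathway activity. The matricellular target Cyr61 averaged 10.4 CPM ± 3.25 (SD, n = 8) in controls, and after IRI, rhabdomyolysis and cisplatin 143 CPM ± 13.2, 158 CPM ± 19.3 and 278 CPM ± 41.2 (SD, n = 4 each), and rose by 3.88, 3.67 and 4.47. Ankrd1, another target, rose by 1.64, 3.91 and 3.29, and the TEAD cofactor gene Vgll3 by 0.99, 2.87 and 1.57. The gene not called in IRI was Ctgf, a profibrotic target (0.32, SE 0.29, limma adjusted p 0.305), which rose by 2.69 in rhabdomyolysis and 2.20 in cisplatin. The summed level of 5 fibroblast and pericyte markers was 63.4 to 149.9 CPM in the controls, 222 to 300.1 CPM in IRI, 228 to 567 CPM in rhabdomyolysis and 155 to 409 CPM in cisplatin, and its part in the Hippo and TEAD values was not tested.

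**Figure D4:**
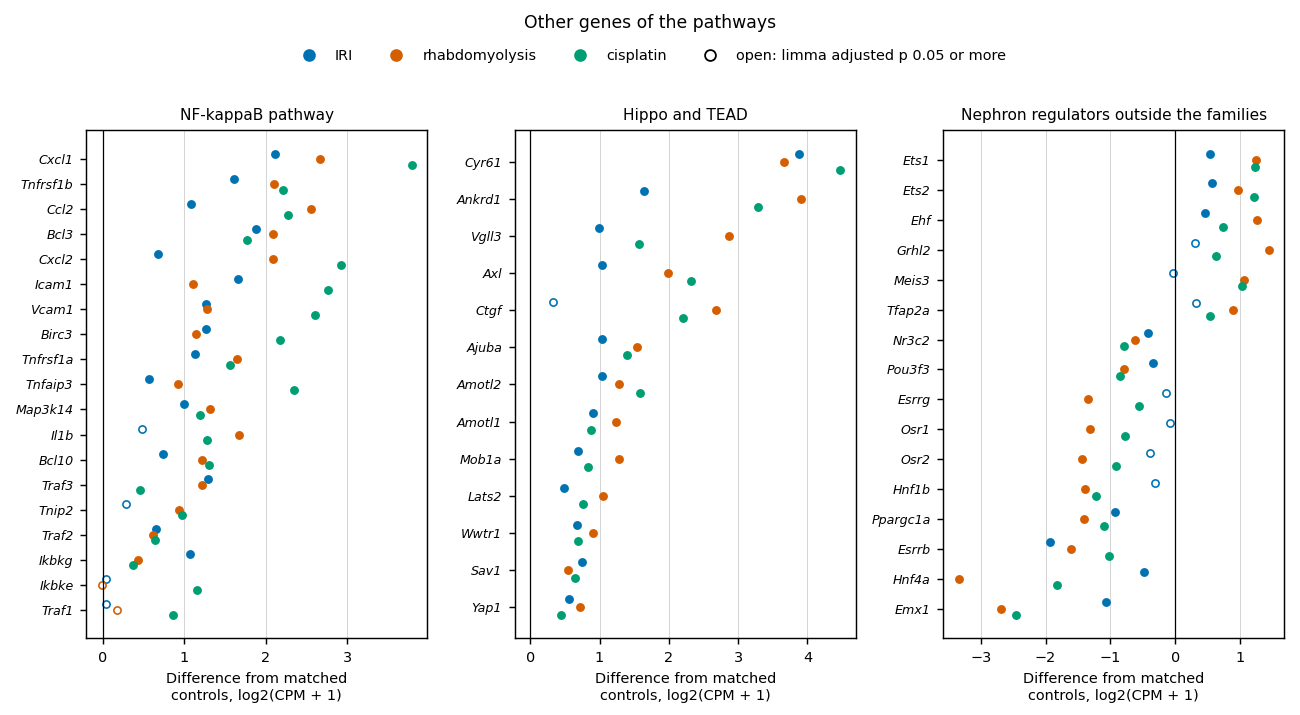
Difference from matched controls on the log2(CPM + 1) scale (x axis) for the other genes of the NF-κB pathway, the Hippo and TEAD pathway and nephron regulators outside the families, in IRI (blue), rhabdomyolysis (orange) and cisplatin (green), with open circles for a limma adjusted p of 0.05 or more. No gene of the first 2 lists was called lower in any injury, while Hnf4a reaches −3.34 in rhabdomyolysis in the third panel.

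The FOX genes rose more often than they fell in rhabdomyolysis and cisplatin. FOX proteins share a forkhead domain and range from pioneer factors to regulators of cilia and of the cell cycle. Of 7 tested, 1 rose and 1 fell in IRI, 6 rose and 1 fell in rhabdomyolysis, and 5 rose and 1 fell in cisplatin. Of all genes, 80.7, 95.3 and 91.8 percent were called in the 3 injuries in that order. Foxa1, a pioneer factor of endoderm and urinary tract epithelium, measured 0, 0.266, 0.115 and 0.343 CPM in IRI, inside the controls (0 to 4 reads per library). In rhabdomyolysis it measured 1.70, 5.81, 5.13 and 7.95 CPM and in cisplatin 1.75, 1.51, 1.23 and 2.42 CPM, all above the controls, with differences of 2.01 (SE 0.26, limma adjusted p 2.35e-07) and 0.95 (SE 0.26, limma adjusted p 0.00197). Foxj1, the master gene of motile cilia, lay from 0 to 0.668 CPM (median 0.308 CPM) in the controls. It measured 0, 0.533, 0.459 and 0.686 CPM in IRI, 0.756, 0.985, 1.14 and 0.795 CPM in rhabdomyolysis and 3.50, 2.52, 2.68 and 3.58 CPM in cisplatin. The cisplatin libraries held 24 to 37 reads each and lay above all others, and the differences were −0.04 (SE 0.19, limma adjusted p 0.859), 0.56 (SE 0.19, limma adjusted p 0.00743) and 1.64 (SE 0.19, limma adjusted p 5.26e-08).

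Foxc1, a factor of mesenchyme and podocytes, rose by 0.68 in rhabdomyolysis and 0.99 in cisplatin, and its IRI difference was −0.27 (limma adjusted p 0.156). Foxs1, a factor of pericytes, rose by 0.95, 1.82 and 0.74, and the cisplatin call was lost without cisplatin 2 (0.51, limma adjusted p 0.0532). Foxn2 rose by 0.98 in rhabdomyolysis and 0.44 in cisplatin, with 0.25 in IRI (limma adjusted p 0.0624). Foxm1, a driver of mitotic genes, rose in rhabdomyolysis by 0.67, and its differences of 0.34 in IRI and 0.24 in cisplatin did not pass (limma adjusted p 0.168 and 0.305). Foxo4, a target of insulin signalling, fell in all injuries, with differences of −0.33 (SE 0.10, limma adjusted p 0.00581) in IRI, −1.05 (SE 0.10, limma adjusted p 2.07e-09) in rhabdomyolysis and −0.62 (SE 0.10, limma adjusted p 7.94e-06) in cisplatin, and every injured library lay below every control. Under 75th percentile scaling the IRI fall of Foxo4 was not called (−0.19, limma adjusted p 0.113). Under quantile normalization 2 FOX genes were called higher in cisplatin in place of 5, with Foxa1, Foxn2 and Foxs1 lost, and 4 in place of 6 in rhabdomyolysis, with Foxj1 and Foxm1 lost. The podocyte, endothelial and fibroblast marker sums were higher in the injured groups (podocyte 166 to 464 CPM in the controls and 628 to 913 CPM in rhabdomyolysis), and their part in the Foxc1 and Foxs1 values was not tested.

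Among the GATA and T-box genes, Gata6 rose and Tbx10 fell in each injury. Gata6, a zinc finger factor of vessels and other mesoderm, rose by 0.74, 1.23 and 0.72, with every injured library above every control at 3 to 8 reads. Tbx3, a T-box repressor of limb and urinary tract development, rose in rhabdomyolysis by 0.92, and its differences of 0.32 in IRI and 0.37 in cisplatin did not pass (limma adjusted p 0.131 and 0.0783). Tbx10 lay from 2.44 to 6.19 CPM (median 4.82 CPM) in the controls. It measured 0.787, 1.60, 2.18 and 1.95 CPM in IRI, 0.473, 1.18, 0.855 and 0.341 CPM in rhabdomyolysis and 0.35, 1.01, 0.782 and 1.26 CPM in cisplatin. All injured libraries lay below all controls, with differences of −0.97 (SE 0.25, limma adjusted p 0.00118) in IRI, −1.67 (SE 0.25, limma adjusted p 1.36e-06) in rhabdomyolysis and −1.56 (SE 0.25, limma adjusted p 4.88e-06) in cisplatin. Under quantile normalization the cisplatin call of Gata6 was lost (0.33, limma adjusted p 0.101).

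The 9 HOX genes moved both ways. HOX factors set position along the body axis, and the adult kidney keeps part of the code of its embryonic position. In IRI 3 rose and 2 fell, and in rhabdomyolysis and cisplatin 5 rose and 3 fell, where 80.7, 95.3 and 91.8 percent of all genes were called in IRI, rhabdomyolysis and cisplatin. Under quantile normalization the balance turned in cisplatin, with 3 higher and 4 lower, and stood at 2 and 2 in IRI and 5 and 4 in rhabdomyolysis. Hoxb9 measured 41.6, 43.0, 42.4 and 31.7 CPM in IRI, 63.1, 54.3, 52.3 and 46.1 CPM in rhabdomyolysis and 46.7, 50.6, 57.0 and 46.5 CPM in cisplatin against controls from 15.9 to 25.9 CPM (median 21.8 CPM). All injured libraries were above all controls. Hoxb9 rose by 0.80, 1.33 and 1.23, and Hoxa11, one of the genes that kidney formation needs, by 0.50, 0.91 and 0.55. The IRI call of Hoxa11 was lost without control 3 or IRI 4 (0.39 to 0.63, limma adjusted p up to 0.0861). Hoxb5 and Hoxc8 rose in rhabdomyolysis by 0.90 and 0.66 and in cisplatin by 0.59 and 0.74, with IRI differences of 0.28 and 0.31 (limma adjusted p 0.178 and 0.122). Under quantile normalization Hoxa11 was not called in IRI (0.26, limma adjusted p 0.216) or cisplatin (0.19, limma adjusted p 0.34), nor Hoxb5 in cisplatin (0.30, limma adjusted p 0.143).

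Hoxa7 fell in every injury, from controls of 26.2 CPM or more to injured libraries of 25.5 CPM or less, with differences of −0.69 (SE 0.14, limma adjusted p 0.000176) in IRI, −1.15 (SE 0.14, limma adjusted p 1.07e-07) in rhabdomyolysis and −0.69 (SE 0.14, limma adjusted p 0.000117) in cisplatin. Hoxd9 had differences of −0.78, −0.49 and −0.67 and was called lower in each, but in rhabdomyolysis its libraries spread from 22.5 to 50.6 CPM and the call was lost without rhabdomyolysis 3 (−0.30, limma adjusted p 0.056). Hoxd4 was called lower in rhabdomyolysis at −0.85 alone, which was lost without control 5, control 6, control 8 or rhabdomyolysis 4 and reached −1.38 without control 7 (−1.38 to −0.60, limma adjusted p up to 0.104), and its IRI and cisplatin differences were −0.02 and −0.60 (limma adjusted p 0.953 and 0.1). Hoxd3 was called lower in cisplatin at −0.71, which was lost without control 5, control 8 or any 1 cisplatin library (−1.06 to −0.42, limma adjusted p up to 0.213), and with all 8 controls (−0.48, limma adjusted p 0.112). Its IRI and rhabdomyolysis differences of 0.19 and −0.66 did not pass (limma adjusted p 0.588 and 0.0575). Hoxd3 ran from 1.2 to 7.25 CPM and Hoxd4 from 0.935 to 8.73 CPM in the controls alone. Under 75th percentile scaling 1 HOX gene was called lower in rhabdomyolysis in place of 3, with Hoxd4 and Hoxd9 lost (limma adjusted p 0.0543 and 0.0739), and the cisplatin call of Hoxd3 was lost as well (limma adjusted p 0.0744).

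Of the IRX, LHX and sine oculis homeobox genes, Irx1 and Lhx1 were lower in every injury. Irx1 is an Iroquois factor of intermediate nephron segments. It lay from 30.8 to 65.9 CPM (median 45.3 CPM) in the controls. It measured 5.64, 7.99, 8.84 and 9.95 CPM in IRI, 32.6, 25.9, 25.9 and 39.5 CPM in rhabdomyolysis and 16.5, 17.4, 13.6 and 18.0 CPM in cisplatin. IRI and cisplatin lay below all controls, with IRI lowest and below every other library, while rhabdomyolysis overlapped with the controls. The differences were −2.48 (SE 0.19, limma adjusted p 1.73e-10) in IRI, −0.46 (SE 0.19, limma adjusted p 0.0254) in rhabdomyolysis and −1.32 (SE 0.19, limma adjusted p 1.14e-06) in cisplatin, and in fold IRI was 6.18-fold and cisplatin 2.62-fold lower. The rhabdomyolysis call was lost without control 5, control 7, rhabdomyolysis 2 or rhabdomyolysis 3 (−0.60 to −0.37, limma adjusted p up to 0.0834), under 75th percentile scaling (−0.27, limma adjusted p 0.151) and with edgeR and TMM (−0.38, edgeR adjusted p 0.0508). The summed level of 4 thick limb markers, an intermediate segment, was 1114 to 1703 CPM in the controls, 274 to 381 CPM in IRI, 190.1 to 317 CPM in rhabdomyolysis and 344 to 405 CPM in cisplatin. It was lowest in rhabdomyolysis by median, where Irx1 was highest of the injuries, and its part in the Irx1 values was not tested.

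Lhx1, a LIM homeobox gene required to form the nephron, lay from 16.0 to 24.9 CPM (median 17.1 CPM) in the controls. It measured 9.44, 13.8, 9.99 and 9.84 CPM in IRI, 3.21, 5.02, 2.66 and 4.77 CPM in rhabdomyolysis and 5.84, 4.64, 5.36 and 6.10 CPM in cisplatin. All injured libraries lay below all controls, with differences of −0.61 (SE 0.17, limma adjusted p 0.00226) in IRI, −2.15 (SE 0.17, limma adjusted p 6.19e-11) in rhabdomyolysis and −1.73 (SE 0.17, limma adjusted p 4.07e-09) in cisplatin. Irx5 was called higher in cisplatin at 0.85 and in IRI at 0.48, the latter lost without control 3, control 4, IRI 1, IRI 2 or IRI 4 (0.30 to 0.62, limma adjusted p up to 0.176), and its rhabdomyolysis difference was 0.43 (SE 0.21, limma adjusted p 0.052). The IRI call of Irx5 was also lost with DESeq2 (DESeq2 adjusted p 0.0923), edgeR on the deposited effective sizes (edgeR adjusted p 0.0624) and quantile normalization (limma adjusted p 0.339). Six5 fell in rhabdomyolysis (−0.82) and cisplatin (−0.97), and its IRI difference was −0.28 (limma adjusted p 0.15). Lhx5 was listed at 0 to 0.704 CPM in the controls and reached 0.7, 1.61, 2.35 and 2.03 CPM in cisplatin, with no test. Among 17 tested nephron regulators outside the families, of a list of 37, 3 were called higher and 6 lower in IRI, and 6 higher and 11 lower in rhabdomyolysis and in cisplatin. Of all genes 40.6, 48.8 and 47.8 percent were higher and 40.1, 46.5 and 44 percent lower, with 80.7, 95.3 and 91.8 percent called. Hnf4a, the master factor of the proximal tubule, averaged 1212 CPM ± 136 (SD, n = 8) in controls, and after IRI, rhabdomyolysis and cisplatin 850.0 CPM ± 45.8, 123 CPM ± 30.9 and 359 CPM ± 107 (SD, n = 4 each). Emx1 fell in each injury (−1.06, −2.69 and −2.46).

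Rhabdomyolysis and cisplatin lie in the same identifier range and were compared directly. Of the 68 members 15 were higher and 16 lower in rhabdomyolysis, 45.6% called against 54.1 percent of all genes tested, with 21.4 percent of all genes higher and 32.7 percent lower. Under quantile normalization the split was 23 higher and 12 lower, so the share higher among called members moved from 48.4% to 65.7% (all genes from 39.6% to 51.8%). Higher in rhabdomyolysis were Runx1 (1.69, SE 0.23, limma adjusted p 2.33e-06), Maff (1.17, SE 0.18, limma adjusted p 1.16e-05), Foxs1 (1.08), Foxa1 (1.06), Klf12 (0.96, SE 0.16, limma adjusted p 3.22e-05), Irx1 (0.87), Bach2 (0.85) and, between 0.46 and 0.55, Tbx3, Tead1, Foxn2, Bach1, Gata6, Klf6, Mafk and Klf16. For Klf12, Irx1 and Bach2 this means a smaller fall than in cisplatin, since all of them were lower in both injuries. The Foxa1 call was lost with a pseudocount of 0.1 (1.37, limma adjusted p 0.0686).

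Higher in cisplatin were Sox11 (−1.33, SE 0.24, limma adjusted p 8.2e-05), Klf15 (−1.24), Foxj1 (−1.08, SE 0.19, limma adjusted p 4.98e-05), Nfkbia (−1.08, SE 0.16, limma adjusted p 6.84e-06), Maf (−1.05), Nfkbie (−0.91), Nfkb2 (−0.89), Klf1 (−0.86), Foxred1 (−0.70) and, between −0.60 and −0.43, Etv4, Sox4, Lhx1os, Klf9, Hoxa7, Foxo4 and Lhx1. Klf15, Maf, Klf1, Klf9, Hoxa7, Foxo4, Lhx1, Lhx1os and Foxred1 fell less in cisplatin than in rhabdomyolysis. Calls that rested on single libraries were Etv4 (lost without rhabdomyolysis 2, cisplatin 2 or cisplatin 3; −0.77 to −0.48, limma adjusted p up to 0.0857), Sox4 (cisplatin 3; −0.68 to −0.47, limma adjusted p up to 0.0611), Gata6 (rhabdomyolysis 3 or cisplatin 3; 0.38 to 0.62, limma adjusted p up to 0.0732), Tbx3 (rhabdomyolysis 1 or cisplatin 1; 0.40 to 0.64, limma adjusted p up to 0.0994), Klf16 (rhabdomyolysis 1, rhabdomyolysis 3, cisplatin 1 or cisplatin 4; 0.39 to 0.55, limma adjusted p up to 0.0675) and Lhx1 (rhabdomyolysis 1, rhabdomyolysis 3, cisplatin 1, cisplatin 3 or cisplatin 4; −0.53 to −0.29, limma adjusted p up to 0.152). Under 75th percentile scaling the Sox4 and Lhx1 calls were lost (limma adjusted p 0.0644 and 0.0875). Under quantile normalization the Hoxa7, Klf9, Etv4 and Lhx1 calls were lost (limma adjusted p 0.0525, 0.0589, 0.0601 and 0.0988), and DESeq2 called neither Hoxa7, Klf9 nor Lhx1 (DESeq2 adjusted p 0.0553, 0.0846 and 0.133). By family, 4 of the 5 MAF and BACH genes were higher in rhabdomyolysis and 1 lower, and both SOX genes were lower, or 1 of them under 75th percentile scaling. Neither C/EBP gene was called (0.04 for Cebpb and 0.41 for Cebpd, SE 0.19 and 0.22), and of the HOX genes Hoxa7 was, while under quantile normalization 2 HOX genes were higher and none lower.

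**Figure D5:**
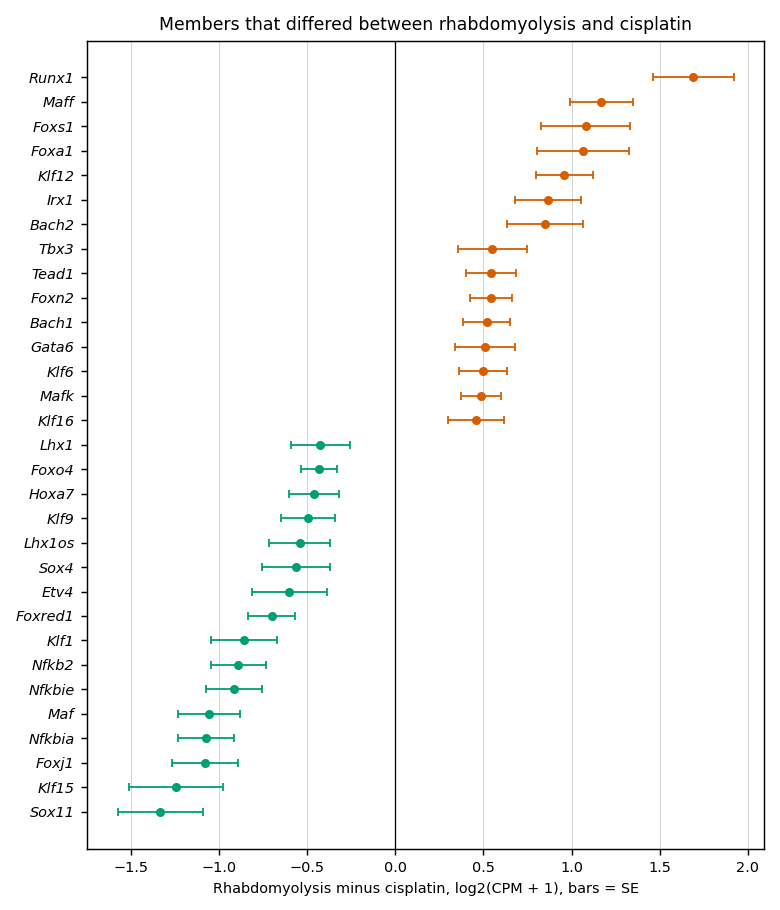
Difference of rhabdomyolysis minus cisplatin on the log2(CPM + 1) scale (x axis, bars are SE) for the 31 members called between these injuries, 4 libraries each. Runx1 (1.69) and Maff (1.17) lead those higher in rhabdomyolysis (orange), and Sox11 (−1.33), Klf15 and Foxj1 (−1.08) those higher in cisplatin (green).

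IRI lies in the other identifier range, so its effect was compared with each other effect, each taken against its own controls. The IRI effect was called higher than the rhabdomyolysis effect for 10 members and lower for 20, against 28.6 and 23.4 percent of all genes (52 percent called in all). It was higher for Maf (2.12, SE 0.25, limma adjusted p 7.58e-07), Klf15 (1.98, SE 0.38, limma adjusted p 0.000194) and Lhx1 (1.54, SE 0.24, limma adjusted p 1.92e-05), which fell less in IRI, and lower for Runx1 (−2.83, SE 0.33, limma adjusted p 5.92e-07), Maff (−2.17, SE 0.25, limma adjusted p 7.45e-07) and Irx1 (−2.03, SE 0.26, limma adjusted p 2.74e-06). Foxa1 (−1.96), Klf6 (−1.63), Mafk (−1.35) and Klf5 (−1.22) were lower too, but the Foxa1 and Klf5 differences were not called by edgeR on the recovered reads (edgeR adjusted p 0.0733 and 0.121 with the deposited effective sizes). Calls of this contrast that were lost without single libraries included Etv4 (control 3 or control 7; −1.0 to −0.69, limma adjusted p up to 0.0537), Klf1 (control 1 or IRI 1; 0.56 to 0.91, limma adjusted p up to 0.0655), Hoxb9 (control 7, rhabdomyolysis 1 or IRI 4; −0.63 to −0.41, limma adjusted p up to 0.0691), Klf16 (7 of 16 libraries; −0.68 to −0.44, limma adjusted p up to 0.0869), and Foxs1 and Runx2 (9 of 16 each; −1.03 to −0.67, limma adjusted p up to 0.109, and −0.95 to −0.69, limma adjusted p up to 0.0971). Etv4, Foxs1 and Runx2 were also not called with DESeq2 (DESeq2 adjusted p 0.0588, 0.193 and 0.103) or with edgeR on the deposited effective sizes (edgeR adjusted p 0.0904, 0.26 and 0.111).

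Against cisplatin the IRI effect was higher for 5 members and lower for 17, against 13.5 and 16.8 percent of all genes (30.3 percent called in all). It was higher for Bach2 (1.55, SE 0.31, limma adjusted p 0.000594), Klf12 (1.30, SE 0.23, limma adjusted p 0.000159), Lhx1 (1.12, SE 0.24), Maf (1.06) and Six5 (0.69), all of which fell less in IRI or were not called there. It was lower for Sox11 (−2.09, SE 0.34, limma adjusted p 8.33e-05), Foxj1 (−1.68, SE 0.26, limma adjusted p 5.77e-05), Nfkbia (−1.55, SE 0.22, limma adjusted p 2.02e-05), Etv4 (−1.46), Foxc1 (−1.26), Irx1 (−1.16), Runx1 (−1.14), Klf6 (−1.13), Nfkb2 (−1.05) and Maff (−1.0). Of the NF-κB subunit genes 4 of 5 had a smaller effect in IRI than in cisplatin, with Rel not called (−0.38, SE 0.29, limma adjusted p 0.344). Relb was lost without control 6 or IRI 3 (−0.89 to −0.60, limma adjusted p up to 0.0548) and Six5 without 11 of 16 libraries (0.57 to 0.82, limma adjusted p up to 0.0985). The Maff difference was not called with DESeq2 (−0.83, DESeq2 adjusted p 0.0504), the Runx1 difference not with edgeR and TMM (−1.30, edgeR adjusted p 0.051), and the Klf5 difference of −0.97 not with edgeR on the deposited effective sizes (−0.65, edgeR adjusted p 0.334). Six5 was not called with DESeq2 (DESeq2 adjusted p 0.0513).

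The 7 symbols caught by their letters are not members of the families by function. Rell1, which encodes a membrane protein related to the receptor RELT, rose by 1.01, 1.79 and 1.75 in IRI, rhabdomyolysis and cisplatin. Foxred1, a mitochondrial protein of complex I assembly, lay from 42.5 to 62.2 CPM (median 53.8 CPM) in the controls. It measured 25.7, 38.6, 34.4 and 37.4 CPM in IRI, 20.0, 17.7, 17.6 and 19.2 CPM in rhabdomyolysis and 31.3, 30.5, 28.7 and 33.0 CPM in cisplatin. All injured libraries lay below all controls, with differences of −0.67 (SE 0.13, limma adjusted p 0.000112) in IRI, −1.41 (SE 0.13, limma adjusted p 1.6e-09) in rhabdomyolysis and −0.71 (SE 0.13, limma adjusted p 4.22e-05) in cisplatin. Lhx1os, a long noncoding RNA that starts next to Lhx1 on the other strand (chromosome 11, 84525660 to 84535831, against 84517975 to 84525534 for Lhx1; RefSeq, GRCm38.p6), lay from 7.53 to 12.8 CPM (median 9.49 CPM) in the controls. It measured 3.15, 5.33, 4.71 and 4.23 CPM in IRI, 1.61, 1.68, 1.43 and 2.04 CPM in rhabdomyolysis and 2.22, 2.83, 3.58 and 3.10 CPM in cisplatin, and the differences were −1.09 (SE 0.17, limma adjusted p 8.85e-06), −1.94 (SE 0.17, limma adjusted p 6.85e-10) and −1.40 (SE 0.17, limma adjusted p 1.89e-07). The use of strand in counting is not given in the sources used here. The repressor of RNA polymerase III Maf1 had differences of −0.52, −0.98 and −0.91, and Reln, a secreted glycoprotein, of −1.24, −0.71 and −0.81, each called lower in every injury. Runx1t1, a corepressor, fell in rhabdomyolysis (−0.92) and cisplatin (−0.80), with −0.16 in IRI (limma adjusted p 0.528), and the receptor Relt was not tested, at 0 to 0.845 CPM in the controls and 2.36, 1.48, 2.00 and 2.38 CPM in rhabdomyolysis. Without these 7 genes, 34 of 62 members tested rose and 11 fell in IRI, and 44 rose and 14 fell in rhabdomyolysis and in cisplatin.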

How the data were processed

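RNA-seq of kidney cortex from 20 mice was read from 1 deposited table of CPM, normalised read counts made by the authors. The submitters' processing notes name FastQC, Bowtie2 2.1.0, RSEM 1.2.15, edgeR and the mouse build GRCm38 (mm10). The annotation, the counting options, the normalization and the rule that selected the genes are not given in the sources used here.

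Members were found by symbol. The members, gene lists and tests were chosen with earlier results of these data known. The 5672 genes whose mean over all libraries reached 1 CPM were tested, and 353 were left out. The test was done with limma 3.58.1 in R 4.3.3 on log2(CPM + 1), in 1 fit of 20 libraries with 5 cells (both control ranges and 3 injuries). Moderation used a mean-variance trend, and p-values were adjusted over all genes by the Benjamini-Hochberg method with a threshold of 0.05. Folds are ratios of mean CPM against the 4 matched controls. The IRI effect was set against another effect by an interaction contrast.

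In each library 100 percent of the CPM values came out as whole multiples of 1 read, within 0.01 reads. The recovered reads were tested with edgeR 4.0.16 and DESeq2 1.42.0 as alternatives. With the deposited effective sizes edgeR called 33 members higher and 15 lower in IRI, 46 and 20 in rhabdomyolysis, and 45 and 20 in cisplatin. These and other alternatives (pseudocount 0.1, other minimum means, other scaling, no trend, a 2-fold minimum, all 8 controls, a replicate block and each library left out) were tried. Of 46 replicate pairs none was identical. No other column of sample values was present (0). The script was tested on simulated data.

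Members are given library by library by a rule: the 5 largest rises and falls per injury among called members whose injured values lay outside all controls and whose highest group mean was at least 5 CPM, the 3 largest each way per difference between injuries among called members whose injured values did not overlap, and the leading member of each remaining family of 3 or more. Some further members were given in full after their values were seen. At most 3 genes per pathway list were named by size, besides those not called. Promoter windows are the 250 bases before RefSeq start sites, and all 70 members had a RefSeq locus. The single values of some genes are not reported here, in text or figures, but the counts include them.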

Additional observations from a re-analysis of the deposited data

Results flagged for a closer look

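In 6 of 96 groups examined (24 members given library by library, in 4 groups each), 1 library stood apart from the rest of its group by Dixon's ratio, the gap to the nearest library over the whole range, and chance gives 4.8. The ratio was 0.914 for Maff in IRI 2 (IRI libraries 15.2, 20.9, 14.9 and 15.4 CPM), 0.93 for Cebpb in rhabdomyolysis 2 (75.6, 62.1, 74.7 and 75.6 CPM) and 0.968 for Klf9 in IRI 4 (103, 103, 101 and 170.1 CPM). It was 0.856 for Klf5 in IRI 1 (6.42, 3.73, 4.02 and 4.12 CPM), 0.841 for Klf5 in cisplatin 1 (10.2, 13.4, 13.6 and 14.0 CPM) and 0.876 for Lhx1 in IRI 2 (9.44, 13.8, 9.99 and 9.84 CPM). Klf9 in IRI 4 was the library of its group nearest to the controls.

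Effects differed between injuries by the limma test of the difference itself. Rhabdomyolysis and cisplatin differed for 31 members. Among those whose libraries did not overlap, the largest differences were those of Runx1 (1.69), Maff (1.17) and Klf12 (0.96) higher in rhabdomyolysis, and of Sox11 (−1.33), Foxj1 (−1.08) and Nfkbia (−1.08) higher in cisplatin. The IRI effect differed from the rhabdomyolysis effect for 30 members, with Maf (2.12), Klf15 (1.98) and Lhx1 (1.54) on one side and Runx1 (−2.83), Maff (−2.17) and Irx1 (−2.03) on the other. It differed from the cisplatin effect for 22 members, with Bach2 (1.55), Klf12 (1.3) and Lhx1 (1.12) on one side and Sox11 (−2.09), Foxj1 (−1.68) and Nfkbia (−1.55) on the other.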

How the results depend on the processing

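Over 32 alternatives, some of which (the replicate block, all 8 controls, the 5 CPM minimum) cover only part of the 261 called member results, no value computed changed direction (0 reversed). A 2-fold minimum left 17 members higher and 5 lower in IRI, 10 lower in rhabdomyolysis, 27 higher and 9 lower in cisplatin, 4 higher and 5 lower in rhabdomyolysis against cisplatin, 3 higher and 9 lower in the IRI against the rhabdomyolysis effect, and 11 lower in the IRI against the cisplatin effect, since it keeps fewer genes by construction. Quantile normalization gave 23 members higher in rhabdomyolysis than in cisplatin, and the cause was not tested. The median difference of all genes was 0.08, 0.31 and 0.30 in IRI, rhabdomyolysis and cisplatin as deposited, 0.19, 0.44 and 0.38 under 75th percentile scaling, 0.23, 0.61 and 0.47 under TMM, and 0.0042, 0.14 and 0.029 under quantile normalization. Without single libraries, 30 to 36 members rose and 15 fell in IRI, 45 to 47 rose and 17 to 19 fell in rhabdomyolysis, and 43 to 45 rose and 17 to 19 fell in cisplatin. Between rhabdomyolysis and cisplatin 13 to 17 were higher and 14 to 16 lower, between the IRI and rhabdomyolysis effects 9 to 13 and 16 to 24, and between the IRI and cisplatin effects 4 to 6 and 16 to 18. With the replicate number as a block 34 members rose and 15 fell in IRI, and 14 were higher and 15 lower in rhabdomyolysis than in cisplatin; calls not made with the block were Nfkb1 and Rel in IRI and Etv4, Gata6, Hoxa7, Lhx1 and Tbx3 between rhabdomyolysis and cisplatin. Same-numbered libraries correlated at −0.11 to 0.18 (IRI and controls) and −0.21 to 0.33 (rhabdomyolysis and cisplatin), and 1 of 4 correlated best with its own number in each. Pairing by number was thus not seen, but 4 libraries per group are too few to exclude it. No paired analysis was possible because the rhabdomyolysis and cisplatin libraries share no replicate numbers with controls 5 to 8 in those comparisons. Depth limits genes near 1 CPM, which rest on few reads.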

Other observations

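Klf1 stood beside a list of 6 red cell genes (globins and Alas2) that was added after the data were seen. Their summed level was 1141 to 2897 CPM in the controls, 1034 to 1655 CPM in IRI, 383 to 491 CPM in rhabdomyolysis and 7.49 to 21.3 CPM in cisplatin. Klf1 itself had a mean of 4.06 CPM ± 1.16 (SD, n = 8) in the controls, and after IRI, rhabdomyolysis and cisplatin 1.25 CPM ± 0.433, 0.172 CPM ± 0.0865 and 1.13 CPM ± 0.2 (SD, n = 4 each). The red cell genes were lowest in cisplatin and Klf1 was lowest in rhabdomyolysis.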
